A study of Mus musculus with 2 samples.

Results

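Luminal progenitors of the mouse mammary gland in a state with high lactoferrin (Ltf) were described here in single-cell RNA counts. A cell was kept if it showed 500 genes or more and had no more than 10% of its unique molecular identifiers (UMIs) from mitochondrial genes. Luminal cells were gated among the kept cells on levels scaled to 10000 UMIs per cell. The gate asked for at least 50 of Krt18, a luminal keratin, for under 2 of the prolactin receptor Prlr, and for at least 10 of Wfdc18, Csn3 and Aldh1a3 together. The members were then chosen by a score of each gated cell, the mean log1p level of Ltf, Tnfaip2, Klk10, Fcgbp, Muc1 and Plb1 minus that of Csn3, Ceacam1, Aldh1a3, Car2, Fam107b and Trf. The third of gated cells with the highest score in its own library is called Ltf-high cells below, and the third with the lowest score is called Ltf-low cells. Ltf-high cells numbered 368 of 1106 gated and 5493 kept cells in cKO and 219 of 659 gated and 3416 kept cells in Ctrl, or 587 of 8909 kept cells in all.

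The study counted messenger RNA in mammary cells enriched by FACS, with 1 library per group. The cKO library came from C57BL/6 mice that were K8-CreERT2;miR-200c/141-flox/flox, in which the promoter of keratin 8, a luminal keratin, drives a Cre that tamoxifen switches on. The Ctrl library came from C57BL/6 mice that were miR-200c/141-flox/flox, which carry the same floxed alleles and have no Cre. Per the labels both groups received tamoxifen at 8 to 10 weeks of age and were taken 4 weeks after it, while another label gives an age of 8 weeks, and the number of mice behind a library is not given in the sources used here. No p-value is given between libraries or between cells, because cells of 1 library are not replicates. Every interval below is a 95% interval of counting error alone and says nothing of the spread between mice.

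In the mammary gland, luminal progenitors are the luminal cells without hormone receptors, and they give rise to the milk-secreting alveolar cells. They line the duct next to hormone-sensing luminal cells, with contractile basal cells outside. The same lining also takes part in innate defence: lactoferrin binds iron and acts against microbes, and epithelial chemokines call in leukocytes. The microRNAs miR-200c and miR-141, made from 1 locus, are known for holding epithelial cells in their epithelial state by repressing Zeb1 and Zeb2. Their mature 3p forms are shown because the cKO genotype targets them, with the seed, bases 2 to 8, in capitals. They lie on the minus strand at chr6:124718324-124718346 and chr6:124717917-124717938 in GRCm38.p6, with sequences from RefSeq.
mmu-miR-200c-3p: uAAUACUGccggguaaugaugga
mmu-miR-141-3p: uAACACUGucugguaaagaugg
MicroRNAs are not among the genes counted in these libraries, so the deletion itself could not be read from them.

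The libraries differed in depth. Kept cells had a median of 14002 UMIs in cKO and 19846 UMIs in Ctrl, and Ltf-high cells 13028 UMIs in cKO and 20549 UMIs in Ctrl. Within a library the depth of Ltf-high cells was close to that of Ltf-low cells, whose medians were 13278 UMIs in cKO and 20685 UMIs in Ctrl. In all, 6118506 UMIs stood behind the Ltf-high cells of cKO and 5664642 UMIs behind those of Ctrl. The deposited libraries shared 6 cell barcodes, none of them among Ltf-high cells. Gated cells were 20.1% of kept cells in cKO (19.1 to 21.2, Clopper-Pearson) and 19.3% in Ctrl (18.0 to 20.7).

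The score formed 1 broad hump in each library with no gap at the cut. Its median in Ltf-high cells was 0.233 in cKO and 0.0339 in Ctrl. The lowest member scored -0.291 and the highest cell outside -0.296 in cKO, and in Ctrl these values were -0.520 and -0.529. Within 0.1 of the cut lay 48 members in cKO and 22 in Ctrl. Cut from a score in this way, the cells are a range of the score, and whether they are a type of their own was not tested. With 1 cut for both libraries, 35.9% of gated cells passed in cKO (33.1 to 38.8) and 29.0% in Ctrl (25.5 to 32.6). Several score genes differ in level between the libraries, as given further on, and their part in this share was not tested.

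**Figure D1:**
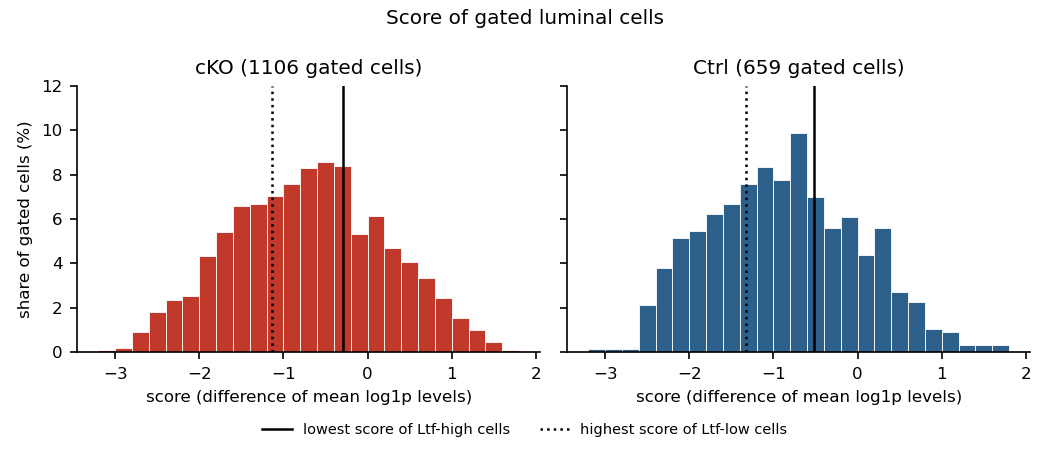
Distribution of the score over gated luminal cells, cKO left and Ctrl right, as the share of gated cells (%) per bin of the score. The solid line marks the lowest score of the Ltf-high cells and the dotted line the highest score of the Ltf-low cells, and both libraries show a single hump that the solid line crosses.

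The values that chose the cells are given first, as a description. Ltf (chr9:111019271-111042767, plus strand, mm10) stood at 1166 counts per 1000000 summed UMIs (CPM) in Ltf-high cells and 134 CPM in Ltf-low cells of cKO, and at 821 and 89.9 CPM in Ctrl. Tnfaip2, a gene induced by tumour necrosis factor, had 1776 CPM in Ltf-high cells and 209 CPM in Ltf-low cells of cKO, against 1149 and 152 CPM in Ctrl. Klk10, a kallikrein-related serine protease, had 131 and 16.1 CPM in cKO and 236 and 10.4 CPM in Ctrl. For Fcgbp, a secreted mucus protein, the values were 345 and 84.5 CPM in cKO and 666 and 122 CPM in Ctrl. The membrane mucin Muc1 had 149 and 27.5 CPM in cKO and 180 and 43.3 CPM in Ctrl, and the phospholipase gene Plb1 had 230 and 102 CPM in cKO and 236 and 105 CPM in Ctrl. Wfdc18, a small secreted protein that the gate used and the score did not, had 9105 and 2539 CPM in cKO and 5396 and 1419 CPM in Ctrl. All 6 marker genes of the state, Wfdc18 among them, were thus several-fold apart between the ends of the score in both libraries.

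On the other side of the score, Csn3, the kappa-casein gene, had 115 CPM in Ltf-high cells and 1428 CPM in Ltf-low cells of cKO, and 305 and 1842 CPM in Ctrl. No UMI of Csn3 was found in 250 of 368 Ltf-high cells of cKO and 75 of 219 of Ctrl, libraries of unequal depth. Aldh1a3, an aldehyde dehydrogenase of luminal progenitors, had 1271 and 2858 CPM in cKO and 922 and 2406 CPM in Ctrl. Trf, the transferrin gene, had 310 and 1144 CPM in cKO, against 1347 and 3113 CPM in Ctrl.

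Cell by cell, Ltf varied widely among the members. The median level was 6.10 per 10000 UMIs in cKO and 3.44 in Ctrl, the upper quartile 16.3 in cKO and 9.46 in Ctrl, and the highest cell 104 in cKO and 80.1 in Ctrl. Of the Ltf-high cells, 64 of 368 (17.4%) in cKO and 39 of 219 (17.8%) in Ctrl had no Ltf UMI at all and entered through the other genes. With each cell thinned to 2000 UMIs, Ltf was found in 61.0% of Ltf-high cells of cKO (219 of 359, 55.7 to 66.1) and 50.9% of Ctrl (111 of 218, 44.1 to 57.7), leaving out 9 and 1 shallower cells. Without thinning the shares were 82.6% in cKO and 82.2% in Ctrl. In cells gated as basal (at least 50 of Krt5 and Krt14, under 50 of Krt18), which should lack Ltf, the thinned share was 0.569% in cKO and 0.387% in Ctrl, with median depths of 7538.5 and 10380 UMIs.

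The 6 genes that raise the score were seldom all found in 1 cell. After thinning, 3 of them were found in 110 of 359 Ltf-high cells of cKO and 66 of 218 of Ctrl, the most frequent number in both. None was found in 20 cells of cKO and 11 of Ctrl, and all 6 in 0 cells of cKO and 1 of Ctrl. Between pairs of these genes, the median Pearson correlation of log1p levels across Ltf-high cells was 0.14 in cKO and 0.13 in Ctrl, with a range of -0.12 to 0.37 in cKO and -0.03 to 0.38 in Ctrl. These are weak correlations in sparse counts, which share library and depth, and no finding is drawn from them. The genes whose level followed that of Ltf most closely across the 1106 gated cells of cKO and the 659 of Ctrl were Wfdc18 (r = 0.37 in cKO and 0.38 in Ctrl), Tnfaip2 (0.35 and 0.33), Cyba (0.36 and 0.32), Mfge8 (0.38 and 0.31) and Crip1 (0.31 and 0.38). Cyba, the p22-phox subunit of NADPH oxidases, and Mfge8, a milk fat globule protein, took no part in the gate or the score.

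The label was set against markers of luminal progenitors that the rule did not use, 11 of 15 listed, among them Kit, Elf5, Mfge8 and Rspo1. Their summed level had a median of 51.9 per 10000 UMIs in Ltf-high cells of cKO and 65.1 in those of Ctrl, against 3.86 in basal-gated cells of cKO and 7.06 in those of Ctrl. Ltf-low cells had 50.9 in cKO and 66.1 in Ctrl, so the sum did not set the ends of the score apart. Markers of other types were low but not absent: 14 basal markers summed above 10 per 10000 UMIs in 23 of 368 Ltf-high cells of cKO and 11 of 219 of Ctrl, 15 hormone-sensing markers in 22 and 11, and 13 myeloid markers in 10 and 4. Of 10 T and NK cell markers, summed CPM was 1.14 in cKO and 1.24 in Ctrl. Cells with any such list above 10 made up 15.2% of Ltf-high cells in cKO (56 cells) and 11.4% in Ctrl (25 cells). In Ltf-low cells they made up 20.4% in cKO and 14.2% in Ctrl. Esr1, the estrogen receptor gene, had 17 UMIs in Ltf-high cells of cKO and 16 in those of Ctrl, 2.78 and 2.82 CPM, close to the 2.82 and 2.11 CPM of basal-gated cells, and Pgr, the progesterone receptor gene, had 6.37 and 4.41 CPM.

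Ltf-high cells differed from Ltf-low cells in many genes besides those of the rule. Because the score orders the same cells, this contrast is part of how they were chosen and is given as a description. A gene was compared if, in each library, Ltf-high or Ltf-low cells had 50 UMIs or more of it, which left 7042 genes without the 15 of the rule, and a gene was called where the CPM ratio was at least 1.5-fold (0.58 on the log2 scale) in the same direction in both libraries. By this rule 856 genes were higher in Ltf-high cells (12.2% of genes tested) and 306 were lower (4.35%). The median log2 ratio over all these genes was 0.12 in cKO and 0.09 in Ctrl. Scaled by trimmed means (TMM) instead of totals, these medians were -0.05 and -0.05, and 603 genes were higher and 521 lower, so the excess of higher over lower genes was smaller under that scaling.

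The genes with the highest ratios differed in abundance and in kind. Alox12e, an epidermal-type lipoxygenase, had 120 CPM in Ltf-high cells and 2.14 CPM in Ltf-low cells of cKO, and 38.5 and 0.716 CPM in Ctrl. Crip1, which encodes a small LIM-domain protein, was the most abundant, with 2182 and 196 CPM in cKO and 1518 and 107 CPM in Ctrl, log2 ratios of 3.48 (3.39 to 3.57) and 3.83 (3.71 to 3.95). Found in 89.1% of Ltf-high cells of cKO and 91.8% of Ctrl, Crip1 was not confined to a few cells. Icam1, the adhesion molecule that leukocytes bind, had 216 and 23.6 CPM in cKO and 212 and 27.4 CPM in Ctrl. Pglyrp1, an antibacterial peptidoglycan recognition protein, had 53.6 and 8.40 CPM in cKO and 42.4 and 6.45 CPM in Ctrl. Pthlh, the parathyroid hormone-like hormone gene, had 37.1 and 2.68 CPM in cKO and 32.7 and 2.33 CPM in Ctrl. The potassium channel subunit gene Kcne3 had 30.4 and 2.86 CPM in cKO and 49.3 and 4.30 CPM in Ctrl. The same rule named Atp10b, Zbtb7c, Klk11, Hsd17b11, Tppp3 and Rassf4, whose log2 ratios lay between 2.62 (Rassf4) and 4.28 (Atp10b) in cKO and between 2.70 (Hsd17b11) and 3.81 (Klk11) in Ctrl.

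The genes with the lowest ratios also ranged widely in level. Cald1, caldesmon, which binds actin, had 64.4 CPM in Ltf-high cells and 381 CPM in Ltf-low cells of cKO, and 57.0 and 342 CPM in Ctrl. Cyr61, a matrix-associated signalling protein, had 111 and 673 CPM in cKO and 134 and 630 CPM in Ctrl, log2 ratios of -2.60 (-2.72 to -2.48) and -2.23 (-2.35 to -2.12). Dusp5, a phosphatase that acts on ERK, had 41.4 and 211 CPM in cKO and 44.3 and 225 CPM in Ctrl. Gated cells between the Ltf-high and the Ltf-low cells had intermediate levels of each of these genes, with 173 CPM of Cald1, 302 CPM of Cyr61 and 98.0 CPM of Dusp5 in cKO. F3, tissue factor, had 389 and 1573 CPM in cKO and 198 and 861 CPM in Ctrl. Hbegf, a heparin-binding ligand of the EGF receptor, had 82.2 and 319 CPM in cKO and 73.4 and 270 CPM in Ctrl. Nes, Khdrbs3, Samd4, Krt80, Plin2 and Fhl2 completed the set with Spp1, of which 3 cells held 61.2% of the UMIs in Ltf-high cells of cKO and 92.95% in those of Ctrl.

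**Figure D2:**
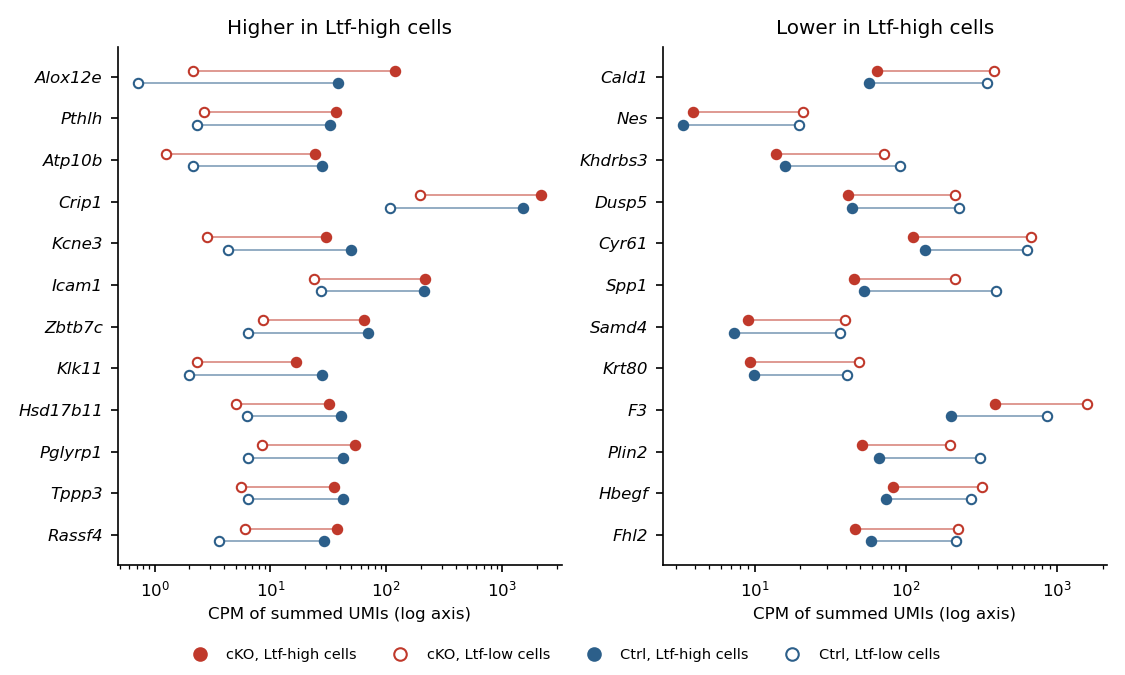
CPM of summed UMIs (log axis) of the 12 genes farthest above 0 (left) and the 12 farthest below 0 (right) in Ltf-high cells over Ltf-low cells, cKO in red above Ctrl in blue. Filled points are Ltf-high cells and open points Ltf-low cells, and each gene moves the same way in both libraries, as the rule that named them requires.

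Chemokine genes stood high in Ltf-high cells. Of 15 listed, 10 had enough UMIs in this contrast, and 8 of them were called higher and 0 lower, beside 12.2% and 4.35% of all genes. The list's log2 ratios had a median of 1.91 in cKO and 2.09 in Ctrl, beside 0.12 and 0.09 over all genes. Cxcl1 and Cxcl2, ligands of the neutrophil receptor CXCR2, were the most abundant. Cxcl1 had 5548 CPM in Ltf-high cells and 1791 CPM in Ltf-low cells of cKO, and 2135 and 830 CPM in Ctrl. Cxcl2 had 3035 and 670 CPM in cKO and 954 and 342 CPM in Ctrl. The related Cxcl5 had 377 and 32.7 CPM in cKO and 496 and 92.6 CPM in Ctrl. Cx3cl1, which can stay tethered to the cell surface, had 139 and 25.01 CPM in cKO and 119 and 19.9 CPM in Ctrl. Cxcl3 was found in 6.69% of Ltf-high cells of cKO and 6.88% of Ctrl after thinning to 2000 UMIs, beside 0.129% of basal-gated cells of Ctrl. Without thinning these shares were 16.03% and 13.7% of Ltf-high cells. Without cells holding markers of another type, 6 chemokine genes were called.

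Genes of the NF-kB pathway, which drives many chemokines and limits itself through its own inhibitors, were also higher. Of 21 listed, Tnfaip2 belongs to the score, 19 were tested, and 12 were called higher and 0 lower, beside 12.2% and 4.35% of all genes. The list median was 0.90 in cKO and 0.84 in Ctrl, beside 0.12 and 0.09 over all genes. Nfkbie, an inhibitor of the pathway, had 66.0 CPM in Ltf-high cells and 14.7 CPM in Ltf-low cells of cKO, and 58.6 and 17.2 CPM in Ctrl. Nfkbia, the most abundant inhibitor here, had 3104 and 1590 CPM in cKO and 2156 and 1206 CPM in Ctrl. Bcl3, a nuclear partner of NF-kB, had 92.5 and 33.1 CPM in cKO and 73.4 and 31.3 CPM in Ctrl, and Tnip1, which restrains the pathway with A20, had 59.3 and 23.8 CPM in cKO and 83.5 and 31.9 CPM in Ctrl. Tnf itself had 321 and 153 CPM in cKO and 153 and 81.8 CPM in Ctrl.

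**Figure D3:**
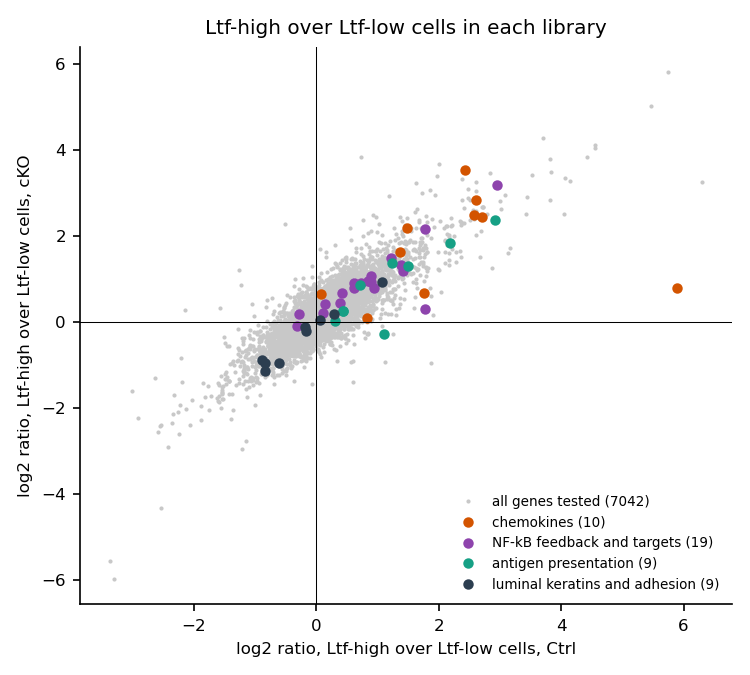
Log2 ratio of Ltf-high cells over Ltf-low cells in cKO (vertical) and Ctrl (horizontal), for 7042 genes (grey) and 4 gene lists (colours). Chemokine and NF-kB genes lie mostly in the upper right, with list medians of 1.91 and 0.90 in cKO, while 4 of 9 luminal keratin and adhesion genes were called lower.

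The promoters of these genes were read for the kB motif, the sequence that NF-kB binds, on both strands of the 250 bases before the start, with overlapping matches counted as 1 gene. A match was present for 5 of 11 chemokine genes with a RefSeq promoter (45.5%) and 9 of 17 genes of the NF-kB list (52.9%). Over all genes with a promoter it was present for 2225 of 27025 (8.23%). The NF-kB list was made of feedback genes and targets of the pathway, so its share says nothing of Ltf-high cells. Of the 6 genes that raise the score, 2 had one, Tnfaip2 and Klk10. Among interferon-stimulated genes 2 of 16 had a match (12.5%). At the ends of the contrast a match was present for 2 of 9 genes with a promoter among its 12 highest (22.2%) and 2 of 8 among its 12 lowest (25%). The windows below show a match in 2 chemokine genes, in a score gene and in the inhibitor Nfkbia, with the motif in capitals, printed in the direction of the gene. In GRCm38.p6 they lie at chr5:90891149-90891208 (plus strand, Cxcl1), chr5:90903777-90903836 (plus, Cxcl2), chr12:111442612-111442660 (plus, Tnfaip2) and chr12:55492648-55492701 (minus, Nfkbia), and the motif begins 71, 97, 24 and 29 bases before the start.
Cxcl1: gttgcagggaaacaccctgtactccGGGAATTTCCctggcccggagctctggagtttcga
Cxcl2: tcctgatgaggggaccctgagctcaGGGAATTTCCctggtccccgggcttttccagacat
Tnfaip2: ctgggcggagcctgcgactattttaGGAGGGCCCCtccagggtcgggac
Nfkbia: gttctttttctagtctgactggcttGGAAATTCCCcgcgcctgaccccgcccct
The motif reads on the strand opposite to the gene in Tnfaip2 and Nfkbia. A match is a run of letters and no measurement of binding.

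Genes of peptide presentation and of interferon response were partly higher in Ltf-high cells. Of 15 genes of antigen presentation, 9 were tested and 5 called higher, beside 12.2% of all genes. Psmb9, an immunoproteasome subunit, had 48.2 CPM in Ltf-high cells and 9.29 CPM in Ltf-low cells of cKO, and 31.1 and 4.12 CPM in Ctrl. Tap1, a subunit of the peptide transporter, had 39.2 and 10.9 CPM in cKO and 42.2 and 9.31 CPM in Ctrl. The class I heavy chain gene H2-K1 did not pass, with 901 and 880 CPM in cKO and 1168 and 942 CPM in Ctrl. Of 20 interferon-stimulated genes 10 were tested and 3 called higher, among them Gbp2 and Rtp4, a count that was 7 when each cell was weighted equally. Gbp2, an interferon-induced GTPase, had 41.4 and 11.97 CPM in cKO and 33.7 and 9.85 CPM in Ctrl. Of 19 innate defence genes in the files 11 were tested and 5 called higher, among them Tlr2, a receptor for bacterial lipoproteins, with 56.7 and 18.4 CPM in cKO and 70.3 and 20.1 CPM in Ctrl. Nos2, the inducible nitric oxide synthase, had 11.6 and 0.357 CPM in cKO and 23.8 and 0.537 CPM in Ctrl, and was found in 10.9% and 15.1% of Ltf-high cells.

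Among mammary transcription factors, 20 of 24 were tested, 8 were called higher and 3 lower, beside 12.2% and 4.35% of all genes. Sox10, a factor of mammary progenitors, had 38.1 CPM in Ltf-high cells and 11.6 CPM in Ltf-low cells of cKO, and 40.6 and 12.2 CPM in Ctrl. Elf5, which specifies the alveolar lineage, had 34.5 and 22.3 CPM in cKO and 61.8 and 33.1 CPM in Ctrl. Stat5a, which prolactin signalling activates, had 23.5 and 5.72 CPM in cKO and 21.2 and 8.06 CPM in Ctrl, and Stat3 had 209 and 67.2 CPM in cKO and 231 and 92.2 CPM in Ctrl. Of 10 luminal progenitor markers outside the rule, 5 were called higher and 1 lower. Kit, the receptor used to sort such progenitors, had 14.9 and 6.25 CPM in cKO and 18.5 and 5.37 CPM in Ctrl, and Rspo1, a Wnt agonist, had 43.3 and 5.90 CPM in cKO and 99.03 and 17.7 CPM in Ctrl. Folr1, a folate receptor, was the one called lower, with 26.6 and 76.1 CPM in cKO and 33.9 and 72.5 CPM in Ctrl.

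Some keratin and junction genes were lower in Ltf-high cells, while most were not called. Over all genes tested, 12.2% were called higher and 4.35% lower. Of 9 luminal keratin and adhesion genes outside the rule, 4 were called lower and 1 higher. Krt8, the partner of Krt18, had 3593 CPM in Ltf-high cells and 7843 CPM in Ltf-low cells of cKO, and 5263 and 9351 CPM in Ctrl. Cdh1, E-cadherin, had 120 and 220 CPM in cKO and 123 and 227 CPM in Ctrl, and the claudin gene Cldn4 had 755 and 1462 CPM in cKO and 597 and 905 CPM in Ctrl. Krt19 was the one called higher, with 1458 and 760 CPM in cKO and 2768 and 1310 CPM in Ctrl. Of 14 tight junction genes tested 3 were called lower and 1 higher, the last being Tjp3 at 44.6 and 6.25 CPM in cKO and 81.4 and 14.3 CPM in Ctrl. Slc2a1, the glucose transporter GLUT1, had 113 and 346 CPM in cKO and 99.2 and 286 CPM in Ctrl. Genes of the G1 phase had 3 of 7 called higher, Ccnd1, Cdkn1b and Cdk6, and 0 lower.

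The second comparison set Ltf-high cells of cKO against those of Ctrl. Of 8867 genes whose UMIs in Ltf-high cells of both libraries came to 50 or more together, 479 were called higher in cKO (5.40%) and 950 lower (10.7%), again at 1.5-fold. The median log2 ratio of all genes was -0.09, and with TMM scaling it was 0.01, with 646 genes higher and 666 lower. The counting interval excluded equality for 1257 genes above and 2137 below, a number set by depth and not by spread between mice. In Ltf-low cells, 337 of 8215 genes were higher in cKO and 1099 lower. With 1 library per group, genotype, mice, sort and library cannot be told apart in what follows.

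Chemokine genes summed to 9616 CPM in Ltf-high cells of cKO and 4062 CPM in those of Ctrl, over all 15 listed. Of these genes 12 were tested, Ccl2 among them passing through cKO alone. Of the 12, 6 were called higher and 1 lower, beside 5.40% and 10.7% of all genes, and the list median was 0.52. Under the alternatives it ranged from 0.25, with the outer sixths of the score, to 0.725, without cells holding markers of another type. Cxcl1 had 5548 CPM in cKO and 2135 CPM in Ctrl, a log2 ratio of 1.38 (1.35 to 1.41). Cxcl2 had 3035 CPM in cKO and 954 CPM in Ctrl, a log2 ratio of 1.67 (1.63 to 1.71). The difference ran through the cells: the median per cell of Cxcl1 was 28.7 per 10000 UMIs in cKO and 4.60 in Ctrl, and that of Cxcl2 6.57 in cKO and 0.561 in Ctrl. Thinned to 2000 UMIs, Cxcl1 was found in 83.8% of Ltf-high cells of cKO (79.6 to 87.5) and 56.0% of Ctrl (49.1 to 62.7), against 55.1% and 41.9% of basal-gated cells. Without thinning Cxcl1 was found in 92.4% and 80.4% of Ltf-high cells.

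In Ltf-low cells the same genes differed in the same direction. There Cxcl1 had 1791 CPM in cKO and 830 CPM in Ctrl, a log2 ratio of 1.11 (1.06 to 1.16), and Cxcl2 had 670 and 342 CPM, a log2 ratio of 0.97 (0.89 to 1.05). Whether the differences are larger in Ltf-high cells than in Ltf-low cells was not tested. Not all chemokines followed: Cxcl5 had 377 CPM in cKO and 496 CPM in Ctrl and did not pass, and Cx3cl1 had 139 and 119 CPM. Cxcl10, an interferon-induced ligand, had 47.9 CPM in cKO and 22.2 CPM in Ctrl, with 3 cells holding 60.1% of its UMIs in cKO and 48.4% in Ctrl. Ccl2, which attracts monocytes, had 91 UMIs in cKO and 9 in Ctrl, with 3 cells holding 73.6% of them in cKO. Cxcl14, also a basal cell marker, was the one lower in cKO, at 13.1 CPM against 41.1 CPM in Ctrl, with 3 cells holding 85% and 73.8% of its UMIs. The NF-kB list itself had 1 gene higher and 1 lower of 19 tested, beside 5.40% and 10.7% of all genes. Tnf had 321 CPM in cKO and 153 CPM in Ctrl, and Tnip3 24.4 CPM in cKO and 44.8 CPM in Ctrl.

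**Figure D4:**
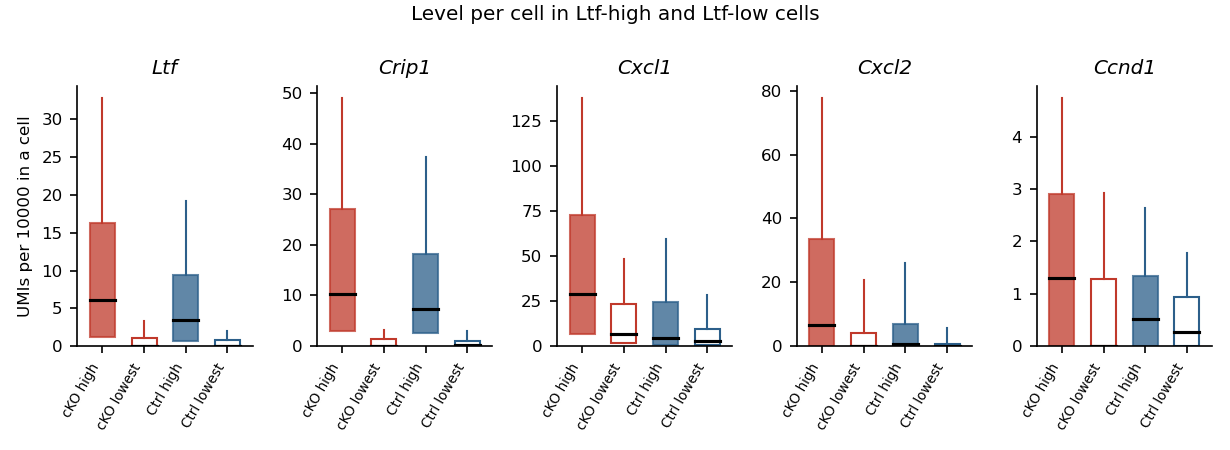
Level per cell (UMIs per 10000) of 5 genes in Ltf-high cells (filled) and Ltf-low cells (open), cKO in red left of Ctrl in blue. Boxes span the quartiles, the black line is the median and the thin line reaches the 90th percentile, and the median of Cxcl1 is 28.7 in Ltf-high cells of cKO and 4.60 in those of Ctrl.

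Interferon-stimulated genes summed to a higher level in Ltf-high cells of cKO, unevenly among the cells. All 20 listed genes together had 556 CPM in Ltf-high cells of cKO and 305 CPM in those of Ctrl, and 226 and 188 CPM in Ltf-low cells. Gated cells between them had 434 CPM in cKO and 266 CPM in Ctrl, so the difference was not confined to Ltf-high cells. Whether it varies along the score was not tested. Of the 20, 11 had enough UMIs in both Ltf-high and Ltf-low cells, and of these 11 the genes called higher in cKO were 6 in Ltf-high cells and 1 in Ltf-low cells, with list medians of 0.67 and 0.29. Another 6 passed the minimum in Ltf-high cells alone, some of them through cKO, as Rsad2 with 47 UMIs in cKO and 11 in Ctrl. With them 12 of 17 were called higher and 0 lower, beside 5.40% and 10.7% of all genes. That count is partly set by the minimum. Isg15, a ubiquitin-like protein, had 87.1 CPM in cKO and 23.0 CPM in Ctrl, a log2 ratio of 1.92 (1.65 to 2.21), while Ltf-low cells had 27.0 and 22.0 CPM. Ifit1, which binds foreign RNA, had 42.2 CPM in cKO and 3.18 CPM in Ctrl, and Rtp4 had 69.1 and 22.2 CPM. The antiviral gene Rsad2 had 7.68 CPM in cKO and 1.94 CPM in Ctrl.

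Summed over the 20 interferon-stimulated genes, the median cell stood at 2.93 per 10000 UMIs in cKO and 2.33 in Ctrl, and the 90th percentile at 13.8 and 5.79. Among Ltf-high cells, the tenth with the most UMIs of these genes held 50.1% of them in cKO and 34.2% in Ctrl. In gated cells between the Ltf-high and the Ltf-low cells this share was 49.9% in cKO and 48.0% in Ctrl. In Ltf-low cells it was 43.6% and 42.5%, so an uneven spread was not particular to cKO. Isg15 was found in 31.3% of Ltf-high cells of cKO and 21.005% of Ctrl, or in 11.98% (8.81 to 15.8) and 4.13% (1.90 to 7.69) after thinning, beside 4.69% and 3.48% of thinned basal-gated cells. Summed CPM of 13 myeloid markers was 98.6 in cKO and 52.4 in Ctrl, and that of 10 endothelial markers 16.2 and 6.18. Without cells holding markers of another type, 8 of the genes that passed were called higher and 1 lower, and in the outer sixths of the score 9 were higher. Gbp2, which stood apart between the ends of the score, did not pass here, at 41.4 CPM in cKO and 33.7 CPM in Ctrl.

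**Figure D5:**
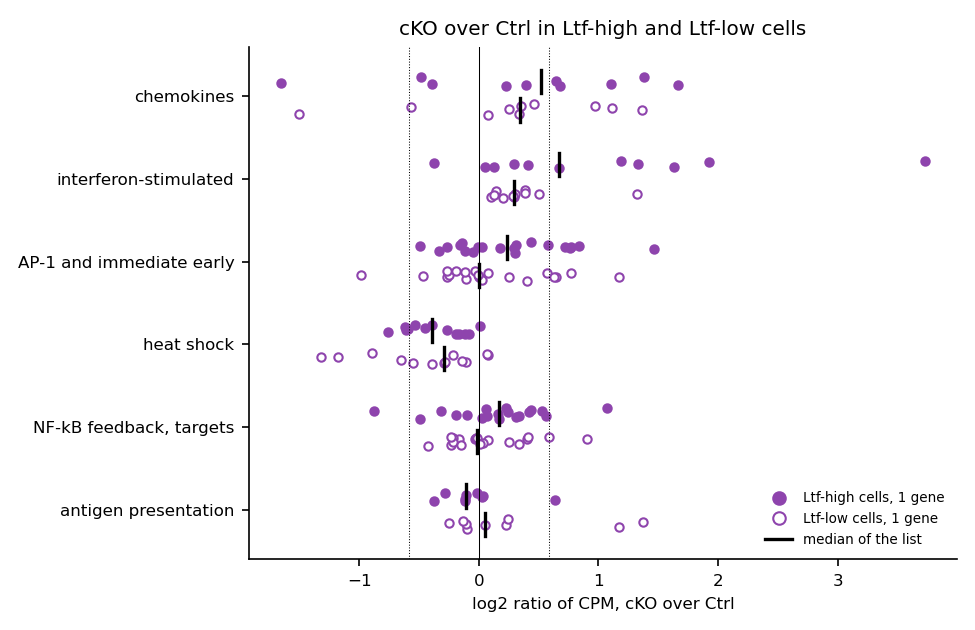
Log2 ratio of cKO over Ctrl for the genes of 6 lists, in Ltf-high cells (filled, upper row of each list) and in the Ltf-low cells (open, lower row), for genes with at least 50 UMIs in both. Black bars are list medians and dotted lines mark 1.5-fold, and the 11 interferon-stimulated genes shown have medians of 0.67 in Ltf-high cells and 0.29 in Ltf-low cells.

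Immediate early genes, which cells also switch on during dissociation, and heat shock genes moved apart. Of 21 immediate early genes tested, 6 were higher in cKO and 0 lower, beside 5.40% and 10.7% of all genes. Atf3, a stress-induced transcription factor, had 712 CPM in cKO and 258 CPM in Ctrl, and Ltf-low cells had 625 and 277 CPM. Ier3 had 3104 CPM in cKO and 1740 CPM in Ctrl, and Ier2 had 797 and 467 CPM. The list median was 0.29, between 0.05 in the outer sixths and 0.605 when each cell was weighted equally, which called 11 genes higher. Of 13 heat shock genes 0 were higher in cKO and 4 lower, or 1 lower with TMM scaling, and the list median was -0.39. The chaperone gene Hsp90aa1 had 608 CPM in cKO and 934 CPM in Ctrl, and Ltf-low cells had 944 and 1483 CPM. These lists are given beside the chemokine difference, and neither their part in it nor that of handling was tested. Of 12 genes of hypoxia and glycolysis 3 were higher in cKO, among them Hif1a at 77.3 CPM in cKO and 35.3 CPM in Ctrl.

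Genes of S phase and mitosis showed how few cells can set a sum. Of 14 tested, 10 were higher in cKO and 0 lower, beside 5.40% and 10.7% of all genes, and the list median was 1.36. Some of them, as Ube2c, passed the minimum through cKO, so that count is partly set by the minimum. Of the 6 with enough UMIs in both Ltf-high and Ltf-low cells, 2 were higher and 0 lower in Ltf-high cells, with a median of 0.09. Ube2c, an enzyme of mitotic exit, had 298 UMIs in Ltf-high cells of cKO and 7 in those of Ctrl, and 3 cells held 97.7% of the 298. Cells with UMIs of at least 4 mitosis genes numbered 6 of 368 Ltf-high cells in cKO (1.63%, 0.601 to 3.51) and 1 of 219 in Ctrl (0.457%, 0.0116 to 2.52). The difference between the shares was not tested. Without such cells 1 gene was called higher and the list median was 0.105.

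Luminal progenitor markers outside the rule had 4 genes lower and 1 higher in cKO of 11 tested, beside 10.7% and 5.40% of all genes. Of the 4 lower genes 1 was Csn1s2a, whose 94 UMIs in Ctrl came from 1 cell. Other luminal lists did not share this split: of 10 hormone-sensing markers 2 were higher and 1 lower, of 13 keratins 5 were higher and 2 lower, and of 9 luminal keratin and adhesion genes 0 were higher and 1 lower. Rspo1 had 43.3 CPM in Ltf-high cells of cKO and 99.03 CPM in those of Ctrl, and Mfge8 1436 and 2659 CPM. The transcription factor gene Elf5 had 34.5 CPM in cKO and 61.8 CPM in Ctrl, and Ehf, a related factor, 157 and 255 CPM. In Ltf-low cells Mfge8 had 676 CPM in cKO and 1656 CPM in Ctrl, so this difference was present at both ends of the score. Krt19 had 1458 CPM in cKO and 2768 CPM in Ctrl. Complement C3 had 58.7 CPM in cKO and 162 CPM in Ctrl. Among milk genes 7 of 13 were lower and 1 higher, yet all 111 UMIs of Csn2 in Ltf-high cells of Ctrl came from 1 cell, and in the outer sixths of the score 1 gene was lower and the list median of -0.89 became 0.26. Trf, a score gene, had 310 CPM in cKO and 1347 CPM in Ctrl.

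Ccnd1, which encodes cyclin D1, was higher in Ltf-high cells of cKO. It lies on the minus strand at chr7:144929931-144939925 (mm10) and had 216 CPM in cKO and 105 CPM in Ctrl, a log2 ratio of 1.04 (0.90 to 1.19). Gated cells between them had 147 CPM in cKO and 82.8 CPM in Ctrl, and Ltf-low cells 96.0 and 65.0 CPM, a log2 ratio of 0.56 (0.37 to 0.76). Ccnd1 was thus highest at the Ltf-high end in both libraries and higher in cKO at every level of the score. After thinning it was found in 28.1% of Ltf-high cells of cKO (23.5 to 33.1) and 13.3% of Ctrl (9.09 to 18.5), against 6.40% and 6.06% of basal-gated cells. Before thinning Ccnd1 was found in 72.3% and 62.6% of Ltf-high cells. Whether the ratio differs along the score was not tested.

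Of 25 genes reported as targets of the miR-200 family 15 were tested, 2 were higher in cKO, Ccnd1 and Tgfb2, and 3 lower, Jag1, Vim and Fn1. Over all genes tested, 5.40% were called higher and 10.7% lower. The UMIs of Fn1 came from 2 cells in cKO and 4 in Ctrl. The list median of -0.08 was 0.02 with TMM scaling, so the list has no direction beyond the scaling. Tgfb2, a TGF-beta ligand, had 125 CPM in cKO and 60.9 CPM in Ctrl, and Ltf-low cells had 128 and 59.4 CPM. Vim, vimentin, had 21.4 CPM in cKO and 71.7 CPM in Ctrl, with 87.2% of the UMIs of Ctrl in 3 cells, and its log2 ratio turned to 0.984 without cells holding markers of another type. Zeb1, with 18 UMIs in cKO and 24 in Ctrl, and Zeb2, with 4 and 3, were too rare to compare. Matches to the miR-141-3p seed in the longest annotated 3′ untranslated regions (GENCODE M21) of both higher genes are shown, with the match in capitals. They begin at base 950 of 2676 in Ccnd1 and at bases 106 and 1386 of 2656 in Tgfb2.
Ccnd1, base 950: agctggaggCAGTGTTgctggtgtg
Tgfb2, base 106: ttgattcatCAGTGTTtaaaaaaaa
Tgfb2, base 1386: tgagctccaCAGTGTTtcagccttt
Neither region held a match to the seed of miR-200c-3p. Matches were not particular to the higher genes. Of the lower ones, Fn1 held 1 match to each seed, and Jag1 and Vim held 0. Among tested targets that were not called, Cfl2 held 2 matches to each seed and Suz12 held 1 to each. Ets1 and Sec23a, also not called, held 3 matches each to the miR-200c-3p seed. Over all genes tested, the 2000 with a miR-141-3p match had a median log2 ratio of -0.14, with 4.00% higher in cKO and 12.8% lower. The 1467 with a miR-200c-3p match had a median of -0.16, with 2.79% higher and 13.5% lower, and the 5851 with neither had -0.06, with 6.00% higher and 9.55% lower. These shares describe 1 library per group, and length or depth of the genes was not matched.

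Several of the largest differences between the libraries were also present in other cells. Rpgrip1, known from photoreceptor cilia, had 124 UMIs in Ltf-high cells of cKO and 2 in those of Ctrl (20.3 and 0.353 CPM), and 25.01 and 0.716 CPM in Ltf-low cells. It also had 35.5 CPM in basal-gated cells of cKO and no UMI in those of Ctrl. Calca, the calcitonin gene, had no UMI in Ltf-high cells of cKO and 505 in those of Ctrl, at least 182-fold lower in cKO against a floor of 3 counts over the group, and 3 cells held 62.2% of the 505. Calca stood at 0.970 CPM in hormone-sensing-gated cells of cKO (at least 2 of Prlr and under 10 of the progenitor genes) and 3333 CPM in those of Ctrl. Neat1, a nuclear noncoding RNA, had 110 CPM in cKO and 442 CPM in Ctrl, and 122 and 477 CPM in Ltf-low cells. Glycam1, a mucin-like protein of milk and of lymph node vessels, had 192 CPM in cKO and 29.7 CPM in Ctrl, 194 and 27.4 CPM in basal-gated cells, and 114710 and 117970 CPM in endothelial-gated cells (at least 2 of Pecam1 and Cdh5, under 50 of Krt18), where it is abundant. The part of RNA free in the suspension in these values was not tested.

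Further genes with large ratios follow. Gpc6, a glypican, had 42.3 CPM in cKO and 8.65 CPM in Ctrl and was found in 41.0% and 17.4% of Ltf-high cells. Cst3, the protease inhibitor cystatin C, had 382 CPM in cKO and 1250 CPM in Ctrl, and 563 and 3422 CPM in Ltf-low cells. Muc4, a membrane mucin, had 28.1 CPM in cKO and 91.8 CPM in Ctrl, and Ptgs2, the prostaglandin synthase COX-2, 17.5 and 71.5 CPM. The selenoprotein gene Gpx3 had 11.4 CPM in cKO and 83.7 CPM in Ctrl, and Cck, cholecystokinin, 8.99 and 40.4 CPM. For Gpx3, 3 cells held 53.4% of the UMIs in Ltf-high cells of Ctrl. Likewise, 3 cells held 75.2% of the UMIs of Upk3a, 65.3% of Sprr1a, 66.1% of Rgcc and 67.2% of Fgb in Ltf-high cells of cKO, where these genes were called higher.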

How the data were processed

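Single-cell libraries of FACS-enriched mouse mammary cells were prepared, per the labels' protocols, with 10x Chromium 3′ reagents. The deposited values are counts, whole UMIs per gene and barcode, with no normalization. Cell Ranger 2 and mm10 are named in the submitters' processing notes, whereas the file headers give software version 3.0.0. The files hold 31053 genes, and 6257 barcodes with 103668011 UMIs for cKO and 4237 barcodes with 95520633 UMIs for Ctrl.

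UMIs were summed per library and cell group and scaled to 1000000 (CPM), with exact Poisson, conditional binomial and Clopper-Pearson 95% intervals (scipy 1.17.1). Genes were called at 1.5-fold with at least 50 UMIs, and counts of called genes leave out the 15 genes of the rule. Named genes are the score and gate genes, the 12 highest and 12 lowest ratios of each comparison with at least 100 UMIs (found in at least 10% of cells for Ltf-high over Ltf-low, 5% for cKO over Ctrl), up to 4 members per list farthest from 0, the 5 closest to Ltf, and Ccnd1, Esr1, Pgr, Zeb1, Zeb2 and Krt8, and genes named outside this rule (H2-K1 as the abundant class I gene, among others) were chosen after their values were seen. The members and the 34 gene lists were chosen with earlier results of these data known, and the basal, hormone-sensing and endothelial gates were set after the data were seen. Scrublet (scanpy 1.11.5), run per library, called 55 cKO cells (1.00%) and 27 Ctrl cells (0.790%), which were kept except in 1 alternative, so undetected pairs may remain. TMM factors came from edgeR 4.0.16. Some genes are not reported here. Calculations were tested on simulated UMI sums with counting error alone. The simulation had no spread between cells, so it does not cover genes whose UMIs lie in few cells.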

Additional observations from a re-analysis of the deposited data

Results flagged for a closer look

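Opposite directions were seen for 4 results, and in each the difference between the directions was not tested. Inhba, an activin subunit gene, had a log2 ratio of Ltf-high cells over Ltf-low cells of -0.93 in cKO and 1.12 in Ctrl, with 3 cells holding 23.6% of its UMIs in Ltf-high cells of cKO and 80.8% in those of Ctrl. Acta2, the smooth muscle actin of basal cells, had -1.40 in cKO and 0.61 in Ctrl, with 74.0% and 89.3% in 3 cells. Hp, haptoglobin, had 1.21 in cKO and -1.27 in Ctrl, with 69.8% and 54.8% in 3 cells. Tnip3, an inhibitor of NF-kB signalling, had a log2 ratio of cKO over Ctrl of -0.88 in Ltf-high cells and 0.59 in Ltf-low cells, with 21.5% and 14.2% of its UMIs in 3 Ltf-high cells of cKO and Ctrl.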

How the results depend on the processing

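No paired analysis was possible because each group has 1 library. Results were recomputed under 9 alternatives and 2 more chosen after seeing the data. The 2 left out, in turn, cells with markers of another type (217 of 1106 gated cells of cKO and 87 of 659 of Ctrl) and cells with mitosis genes. Values of single genes were followed for 24 named genes in Ltf-high over Ltf-low cells and 30 in cKO over Ctrl, and not for the other named genes. Of these values 715 stayed within the counting interval of the reported one, 140 moved further and 3 reversed. The minimum of 20 UMIs cannot change a ratio of a single gene, so all values under it are among the 715. A value was counted as reversed if its sign changed and the reported ratio was at least 1.5-fold. Sign changes of smaller ratios fall under the other counts. With the outer sixths there were 184 members in cKO and 109 in Ctrl, and the milk list median of cKO over Ctrl was 0.263. With TMM scaling 521 genes were lower in Ltf-high cells than in Ltf-low cells. A minimum of 20 UMIs gave 1285 genes higher in Ltf-high over Ltf-low cells and 798 higher in cKO. Vim went to 0.0771 with the score taken from cells thinned to 5000 UMIs, which left out 84 gated cells of cKO and 20 of Ctrl. Without cells holding markers of another type, the basal list median was 0.791, that of S phase and mitosis -0.0712, Vim 0.984 and Inhba 0.0193, on fewer cells. Ccnd1 kept a log2 ratio of cKO over Ctrl between 1.02 and 1.14 under every alternative run. The smaller number of cells and the lower depth per cell limit genes under about 50 UMIs most. Intervals cover counting error only.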

Other observations

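Of 10 iron handling genes tested besides Ltf and Trf, 1 was called higher and 1 lower in Ltf-high cells, beside 12.2% and 4.35% of all genes. Steap4, a metalloreductase, had 26.3 CPM in Ltf-high cells and 5.54 CPM in Ltf-low cells of cKO, and 39.2 and 8.41 CPM in Ctrl. Hmox1, heme oxygenase, had 393 and 1081 CPM in cKO and 881 and 2172 CPM in Ctrl. In the EGF family, Nrg1 had 12.9 CPM in Ltf-high cells and 2.86 CPM in Ltf-low cells of cKO, and 27.0 and 8.24 CPM in Ctrl, and its receptor Erbb3 had 32.7 and 14.3 CPM in cKO and 60.02 and 30.6 CPM in Ctrl. Areg, another ligand of the family, ran the other way, with 171 and 469 CPM in cKO and 82.1 and 168 CPM in Ctrl. All of these were past 1.5-fold in both libraries. In cholesterol and fatty acid synthesis 2 of 15 genes tested were called higher between the ends of the score and 2 lower. Scd1, a desaturase, had 63.6 and 17.3 CPM in cKO and 84.4 and 36.5 CPM in Ctrl.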
